A study of Homo sapiens with 8 samples.

Results

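Nascent transcription of 43 interferon-stimulated genes was followed in oncogene-induced senescence. The genes were chosen by symbol, as interferon-induced antiviral and antigen-presentation genes, and each matched 1 of the 27945 gene rows of the count table. The rule uses no measured value, but the genes were picked with earlier results of these data known. fastGRO-seq, a run-on assay in which polymerases in isolated nuclei extend their RNA with a labeled nucleotide so that the reads report ongoing transcription, was performed in IMR90 cells, which are primary human lung fibroblasts. All cells carried an inducible fusion of the estrogen receptor with oncogenic H-RAS (ER:RAS), which 4-hydroxytamoxifen (4-OHT) activates. Each of 4 groups had 2 libraries. Control cells were labelled wild type and control, and their labels name no shRNA. The other 3 groups were senescent, by the study's methods after 100 nM 4-OHT, and were labelled shcontrol, shMETTL3 or shMETTL14 (shControl, shMETTL3 and shMETTL14 here). The methods give harvest on day 6 for examining senescence markers, and name no day for the fastGRO-seq libraries. METTL3 and METTL14 form the m6A RNA methyltransferase complex. The methods list 1 hairpin for each target. The sources used here do not settle whether control cells received a vector or a vehicle. A figure legend of the study names a vector in wording that may or may not cover them. Senescence and shRNA infection thus cannot be told apart in any comparison with control cells.

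Interferon-stimulated genes are switched on when a cell senses foreign or misplaced nucleic acid. RNA sensors such as RIG-I and MDA5, and DNA sensors such as cGAS, induce type I interferon, which binds its receptor and activates a complex that holds STAT2 and IRF9. That complex binds the interferon-stimulated response element in promoters, while interferon gamma acts through the gamma-activated site. In senescent fibroblasts a type I interferon response is known as a late feature, driven by cytoplasmic DNA.

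The 8 libraries held 14897360 to 20306299 counts, of which 86.2% to 92.5% lay in 21 ribosomal RNA rows, so that 1513930 to 2048475 counts remained for all other genes. Libraries of a group differed by more than counting error: the ratio of their variance to that of sampling was 1.74 for control, 1.78 for shControl, 8 for shMETTL3 and 3.64 for shMETTL14, while the fit used 1 estimate of the spread for all groups. METTL3 counts were 77 and 47 in the shControl libraries against 16 and 19 in the shMETTL3 libraries, a log2 fold change of -2.04 ± 0.31 (SE) with an edgeR adjusted p of 1.8e-05. METTL14 counts were 24 and 28 in the shControl libraries against 18 and 14 in the shMETTL14 libraries. The log2 fold change of -0.86 ± 0.34 did not pass the threshold (adjusted p = 0.076), so these counts did not show the METTL14 knockdown. They report transcription and not mRNA or protein, so they cannot settle whether a knockdown worked. The study checked its knockdowns by western blot. METTL14 was already lower in shControl than in control cells, which had 60 and 55 counts (log2 fold change -0.76 ± 0.28, edgeR adjusted p = 0.047). All 10 fibroblast markers were transcribed in every library, but their summed normalized count was 22500 to 24100 in control cells, 10900 to 12800 with shControl, 10900 to 13200 with shMETTL3 and 7620 to 8660 with shMETTL14. Markers of other cell types were low: CD3E was at 0 in all libraries, EPCAM had 1 count in total, CDH1 had 7 and PTPRC had 16. The immune list was mainly CD68, a lysosomal gene not restricted to immune cells, and its sum was 15.9 to 18.3 in control cells, 53.4 to 80.4 with shControl, 31.3 to 47.2 with shMETTL3 and 47.4 to 52 with shMETTL14. Epithelial sums were 44.3 to 46.2, 28.9 to 54.4, 21.8 to 23.6 and 59 to 70 in the same order, and endothelial sums stayed between 2.11 and 8.86. The part of these marker differences in the results below was not tested.

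Promoters of some genes that moved are shown first, because the elements through which interferon acts can be read in them. RefSeq promoter windows (GRCh38.p14, 250 bases before to 50 after a start site, 300 in all) were found for 35 of the 43 genes, DDX58 under its current symbol RIGI. The other 8 were IFIT2, GBP2, OAS2, OASL, MX2, IRF7, USP18 and TRIM22. The interferon-stimulated response element, searched on both strands as GAAA and GAAA with any 2 bases between them, was present in 23 of the 35 genes, and in 27 of their 47 windows (57.4%) against 1255 of all 35116 windows (3.57%). The gamma-activated site, searched as TTCNNNGAA, was in 12 of the 47 windows (25.5%) against 7.66% of all windows, and the kappaB site was in 8 (17%) against 5.91%. Some matches overlapped each other, for example an interferon-stimulated response element and a gamma-activated site in MX1, BST2 and IFI27. These are matches of letters, not shown binding sites. Not every gene that moved has a response element. The STAT2 window had no match of any kind searched, and the DDX58 window had only a kappaB site. Whether genes that moved carry the element more often than the others was not tested. The windows below run 5′ to 3′ on each gene's own strand, with matches in capitals. IFI6, the gene that rose most with shMETTL3, lies at chr1:27672143-27672442 on the minus strand and has 3 response elements.
IFI6: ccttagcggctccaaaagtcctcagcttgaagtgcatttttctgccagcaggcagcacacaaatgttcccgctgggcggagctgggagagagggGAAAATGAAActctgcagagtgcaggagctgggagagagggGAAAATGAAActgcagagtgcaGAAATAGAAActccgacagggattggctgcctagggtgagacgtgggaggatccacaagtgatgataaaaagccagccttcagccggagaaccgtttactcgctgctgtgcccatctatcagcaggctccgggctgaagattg
IFI44 and IFIT3 differed between the knockdowns, IFIT1 was lower with shMETTL14 than in control cells, and all 3 are shown for their response elements. The windows are chr1:78649539-78649838, chr10:89392373-89392672 and, for the more upstream of the IFIT3 starts in the table, chr10:89327747-89328046, all on the plus strand.
IFI44: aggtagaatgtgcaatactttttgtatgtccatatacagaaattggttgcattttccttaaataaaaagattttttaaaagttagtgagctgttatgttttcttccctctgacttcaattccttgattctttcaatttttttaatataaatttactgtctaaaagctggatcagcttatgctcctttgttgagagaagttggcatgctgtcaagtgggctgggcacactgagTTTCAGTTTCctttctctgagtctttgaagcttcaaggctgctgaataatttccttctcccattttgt
IFIT1: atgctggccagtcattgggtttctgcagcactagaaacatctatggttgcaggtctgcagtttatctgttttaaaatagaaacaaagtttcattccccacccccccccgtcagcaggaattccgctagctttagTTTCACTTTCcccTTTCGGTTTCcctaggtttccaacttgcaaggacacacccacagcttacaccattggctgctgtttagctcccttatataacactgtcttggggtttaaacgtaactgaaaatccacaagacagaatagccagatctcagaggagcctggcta
IFIT3: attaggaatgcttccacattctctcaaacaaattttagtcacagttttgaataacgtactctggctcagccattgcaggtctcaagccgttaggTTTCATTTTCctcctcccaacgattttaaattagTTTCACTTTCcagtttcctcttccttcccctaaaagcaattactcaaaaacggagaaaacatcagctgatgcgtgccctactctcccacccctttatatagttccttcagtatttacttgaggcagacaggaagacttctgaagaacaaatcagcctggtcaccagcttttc
GBP1 (chr1:89065159-89065458, minus strand) had the largest fall in senescence, and DTX3L (chr3:122564088-122564387, plus strand) fell together with its neighbour PARP9.
GBP1: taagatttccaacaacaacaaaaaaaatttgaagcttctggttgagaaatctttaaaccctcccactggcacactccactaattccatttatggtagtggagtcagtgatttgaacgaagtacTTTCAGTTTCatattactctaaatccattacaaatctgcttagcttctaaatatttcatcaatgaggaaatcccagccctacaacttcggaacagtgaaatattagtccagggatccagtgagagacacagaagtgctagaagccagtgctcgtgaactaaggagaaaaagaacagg
DTX3L: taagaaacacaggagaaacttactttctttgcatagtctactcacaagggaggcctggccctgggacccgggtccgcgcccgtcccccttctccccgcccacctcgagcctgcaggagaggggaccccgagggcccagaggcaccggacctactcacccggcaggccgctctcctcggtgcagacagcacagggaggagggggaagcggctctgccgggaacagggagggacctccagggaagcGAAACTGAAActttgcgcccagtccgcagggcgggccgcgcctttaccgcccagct
The element in capitals in the DTX3L window, chr3:122564332-122564341, is also the only match in the windows of PARP9, which is transcribed away from DTX3L on the opposite strand. It begins 6 bases before the DTX3L start and 41 bases before a PARP9 start. IRF1 (chr5:132490724-132491023, minus strand) rose with both knockdowns and is shown for contrast: its window has no response element, but a gamma-activated site, and a kappaB site closer to the start.
IRF1: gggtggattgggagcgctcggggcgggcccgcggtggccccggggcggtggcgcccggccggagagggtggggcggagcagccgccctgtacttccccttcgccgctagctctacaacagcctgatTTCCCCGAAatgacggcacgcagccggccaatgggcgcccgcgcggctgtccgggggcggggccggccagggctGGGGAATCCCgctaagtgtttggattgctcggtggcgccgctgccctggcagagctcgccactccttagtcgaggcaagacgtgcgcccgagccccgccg
Across the 23 genes with a response element, the matches fell at 41 different places, 13 genes had 2 or more, and each of the 23 had a match within 200 bases before a start site.

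**Figure D1:**
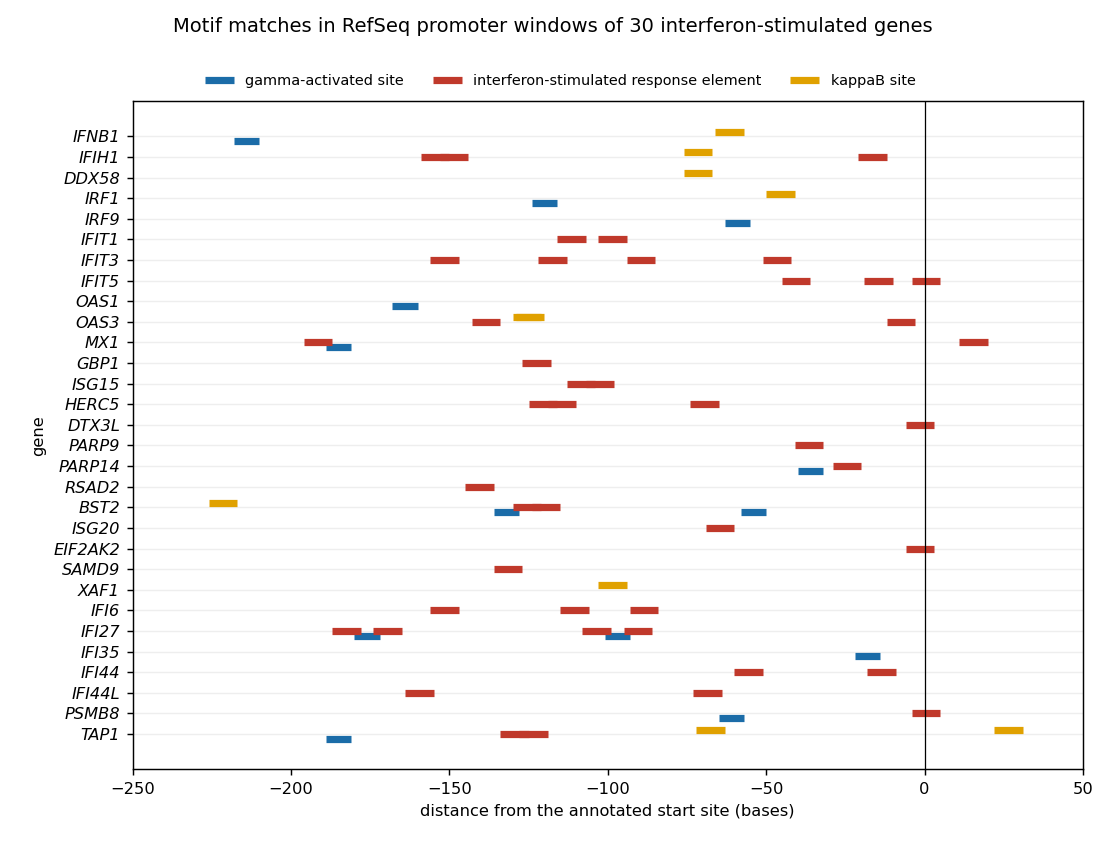
Each row is a gene and the horizontal axis is the distance in bases from an annotated RefSeq start site (vertical line at 0). Red blocks mark interferon-stimulated response elements, blue blocks gamma-activated sites and yellow blocks kappaB sites, on either strand and over all windows of a gene. The 30 genes shown are those with any match, and most red blocks lie in the 200 bases before the start.

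The genes spanned a wide range of transcription. Levels between genes were compared as RPKM, counts scaled to the length of the gene and to the library's counts outside ribosomal RNA rows. ISG15, a ubiquitin-like modifier, had the highest mean over the 8 libraries at 10.3 RPKM, followed by STAT2 at 4.8, IRF1 at 3.83 and IFI6 at 3.55. The order differed between groups: STAT2 (8.15) was above ISG15 (6.2) in control cells, while with shMETTL14 STAT2 (2.33) was below IRF1 (5.09), IFI6 (4.58) and IRF9 (2.82), all as mean RPKM of 2 libraries. Of the 43 genes, 11 had a mean of at least 1 RPKM and 19 lay above the median protein-coding gene. Counts covered whole gene bodies, introns included, so that a long gene such as DDX58, at 1.29 RPKM, still had a mean of 162 counts. ISG15, of 1072 bases, had its first rank from a mean of only 19.1 counts, against 160 for STAT2, so that rank is imprecise.

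Only 24 of the 43 genes passed edgeR's filter on low counts and were tested. The 19 others were IFNB1, IRF7, IFIT2, OAS1, OAS2, OASL, MX1, MX2, USP18, HERC5, RSAD2, CMPK2, BST2, XAF1, IFI27, IFI35, IFI44L, PSMB8 and PSMB9. Their totals over all 8 libraries ran from 0 to 48 counts, with 8 genes under 10. RSAD2, the antiviral enzyme viperin, was at 0 in every library, and MX1, a GTPase that traps viral nucleocapsids, reached no more than 10 counts in any. IFNB1, the gene for interferon beta, had counts of 1 and 0 in control cells, 1 and 0 with shControl, and 0 in the 4 knockdown libraries. IRF7, the factor that amplifies type I interferon production, had counts of 6 and 2, 1 and 2, 2 and 0, and 3 and 6 in control, shControl, shMETTL3 and shMETTL14 cells. No difference in either gene was detectable at this depth. When the filter was dropped, PSMB9, an immunoproteasome subunit, was the only one of the 19 to pass, as lower with shMETTL14 than in control cells (0 and 0 counts against 9 and 3, adjusted p = 0.047). Summed over the 19 genes, the counts were 81 and 49 in the control libraries, 25 and 20 in shControl, 53 and 33 in shMETTL3 and 37 and 37 in shMETTL14. The filter itself leaned on some groups: IFIH1, IFIT1, OAS3 and ISG20 would have failed it without the control libraries, and HERC6 and TAP1 without the shMETTL3 libraries.

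**Figure D2:**
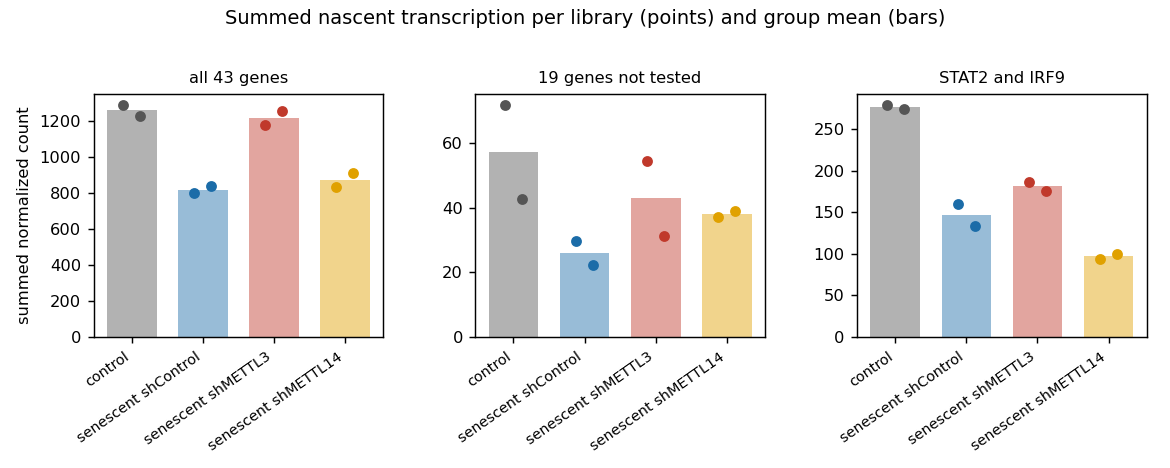
Bars give the group mean and points the 2 libraries of each group, as summed normalized counts (counts scaled by TMM to a common library size) for all 43 genes, for the 19 genes not tested and for STAT2 with IRF9. The sum over all 43 genes was 1288 and 1230 in the control libraries, 800.4 and 836.9 in shControl, 1177 and 1255 in shMETTL3 and 832.6 and 913 in shMETTL14.

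Summed over the 43 genes, transcription was lowest in the shControl cells, at 65% of the control mean, against 96.6% with shMETTL3 and 69.3% with shMETTL14. The sums rest largely on 4 well-counted genes, DDX58, STAT2, PARP14 and EIF2AK2. No test was made on the sums. In bulk libraries, transcription in fewer cells and less transcription per cell cannot be told apart.

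The first comparison asked how interferon-stimulated genes were transcribed in senescent shControl cells relative to control cells. No gene of the 24 rose and 8 fell: GBP1, OAS3, GBP2, PARP9, DTX3L, TRIM22, STAT2 and PARP14. Among all 12844 genes tested, 13.3% were called higher and 13.3% lower, against 33.3% of the 24 called lower. The 24 genes had a median log2 fold change of -0.98 against -0.03 for all genes, and 19 of the 24 (79.2%) had a negative value against 52.5% of all genes. At an unadjusted p below 0.05, 0 genes were higher and 13 lower, and DESeq2 called 0 higher and 6 lower. The shares of all genes called are for edgeR at an adjusted p below 0.05. For these other criteria no such share is given, here or below. OAS3, IFIH1, IFIT1 and ISG20 passed the filter only through the control libraries, where they are high, so their negative values were favoured by the filter and are no support for a fall. Leaving out these and the 2 genes that passed only through shMETTL3, an alternative chosen after seeing the data, 0 of 18 genes rose and 7 fell, with a median of -0.93. With at least 10 counts required in every library, which removes genes that fell to few counts, 4 fell and the median was -0.16.

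Of the sensors, neither passed the threshold. DDX58, which encodes RIG-I, had counts of 157 and 152 in the control libraries against 96 and 138 in the shControl libraries, a log2 fold change of -0.02 ± 0.18 after normalization. IFIH1, which encodes MDA5, had 12 and 12 against 4 and 4 (log2 fold change -1.18 ± 0.72, adjusted p = 0.24), non-overlapping but low. Of the transcription factors, STAT2 (hg19 chr12:56735382-56754037, minus strand), a subunit of the type I interferon complex, was the only member to fall. Its counts were 289 and 284 in the control libraries against 121 and 114 in the shControl libraries. The groups lay far apart, and the log2 fold change was -0.90 ± 0.16, a 1.87-fold fall with an adjusted p of 6.4e-05. IRF9, the DNA-binding partner of STAT2, had 26 and 31 counts against 14 and 6 and did not pass (-1.11 ± 0.44, adjusted p = 0.062). IRF1, the factor induced by interferon gamma, had 53 and 43 counts against 43 and 35, a log2 fold change of 0.09 ± 0.30.

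Among genes past the threshold that did not depend on 1 group to pass the filter, the interferon-induced GTPases GBP1 and GBP2 gave the largest falls. GBP1 (chr1:89517987-89531043, minus strand), a guanylate-binding protein that attacks intracellular pathogens, had 59 and 65 counts in the control libraries against 11 and 9 in the shControl libraries. The groups did not overlap, and the fall was 4.7-fold (log2 fold change -2.23 ± 0.38, adjusted p = 5.3e-05). GBP2, its neighbour of the same family, had 51 and 36 counts against 5 and 17, a log2 fold change of -1.60 ± 0.42 (adjusted p = 0.0049). The GBP2 call was lost without the first control library (log2 fold change -1.31, adjusted p = 0.08) or without the first shControl library (-1.0, adjusted p = 0.16). OAS3, a synthetase of the second messenger that activates RNase L, had 36 and 26 counts against 3 and 9, and passed the filter only through the control libraries, where it is high. Its log2 fold change was -1.97 ± 0.50 (adjusted p = 0.0039), and the call was lost without the first control library (-1.70, adjusted p = 0.073) or the first shControl library (-1.42, adjusted p = 0.11). The other OAS genes were too low to test.

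Among the ADP-ribosylation genes, DTX3L, PARP9 and PARP14 all fell. DTX3L, a ubiquitin ligase that works in a complex with PARP9, had 78 and 77 counts in the control libraries against 28 and 21 in the shControl libraries (log2 fold change -1.27 ± 0.28, adjusted p = 0.0012). PARP9 had 43 and 41 counts against 14 and 11 (-1.36 ± 0.37, adjusted p = 0.0066). Neither gene's groups overlapped, but both shControl libraries lay below both control libraries in 34.5% of all genes. The genes share 339 bases at their starts, 3.12% of DTX3L and 0.922% of PARP9, and reads there may count for both. The strand setting of the counting was not given in the sources used here, and of 315 genes of at least 100 counts that lay inside a gene of the opposite strand, only 2 exceeded the outer gene in any library, as would be seen if reads of both strands were counted for each gene. PARP14, a mono-ADP-ribosyltransferase, had 155 and 186 counts against 74 and 101 (-0.58 ± 0.18, adjusted p = 0.016). TRIM22, an antiviral ubiquitin ligase, had 71 and 84 against 32 and 27 (-1.004 ± 0.25, adjusted p = 0.0032). DESeq2 did not call PARP9 (adjusted p = 0.062) or PARP14 (adjusted p = 0.1). Single libraries carried part of these calls. PARP9 was lost without the first control library (-1.30, adjusted p = 0.055) or the second shControl library (-1.14, adjusted p = 0.098), PARP14 without the second control library (-0.45, adjusted p = 0.19) or the first shControl library (-0.40, adjusted p = 0.27), and TRIM22 without the second shControl library (-0.83, adjusted p = 0.073). GBP1, STAT2 and DTX3L kept their calls with any library left out.

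The IFIT genes, which bind foreign RNA, had negative values in senescent cells that did not pass the threshold: IFIT1, IFIT3 and IFIT5 had log2 fold changes of -1.69, -1.22 and -0.97, with adjusted p-values of 0.085, 0.083 and 0.09. ISG15 was the exception in sign among the larger changes, at 0.73 ± 0.45 (adjusted p = 0.25). The remaining genes, among them EIF2AK2, which encodes the kinase PKR, and TAP1, the peptide transporter of antigen presentation, lay between -1.46 and 0.27.

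**Figure D3:**
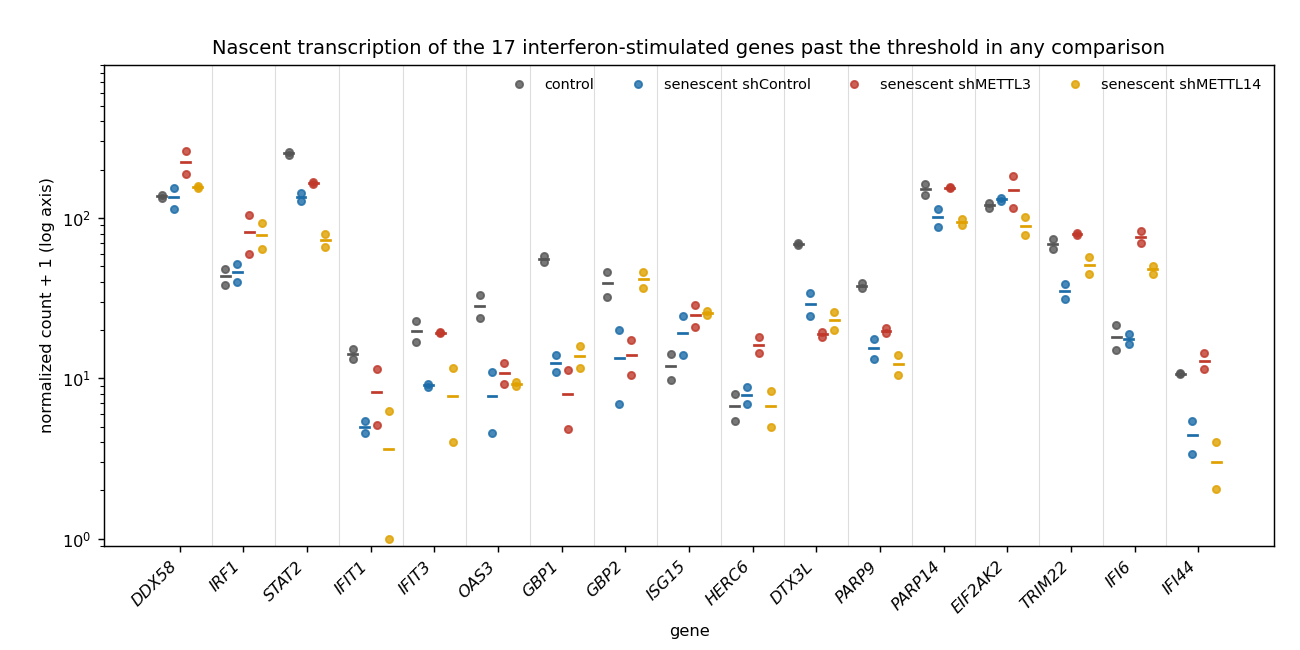
Normalized counts plus 1 on a log axis for the 17 genes past the threshold in at least 1 of the 6 comparisons, with a point for each library and a bar at each group mean. STAT2, GBP1, OAS3, DTX3L and PARP9 are highest in both control libraries, and IFI6 is highest in the shMETTL3 libraries, followed by the shMETTL14 libraries.

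With METTL3 knocked down in senescent cells, 5 of the 24 genes rose and none fell: IFI6, TRIM22, IRF1, DDX58 and PARP14. In this comparison 12.3% of all genes were called higher and 11.2% lower, against 20.8% of the 24 called higher. The median log2 fold change of the 24 was 0.57 against -0.03 for all genes. Of the 24, 21 had a positive value and 3 (12.5%) a negative value, against 52.1% of all genes negative. At an unadjusted p below 0.05, 7 were higher and 0 lower, and DESeq2 called 3 higher and 0 lower. DESeq2 did not call PARP14 (adjusted p = 0.066) or IRF1 (adjusted p = 0.097). HERC6 and TAP1 passed the filter only through the shMETTL3 libraries, so their positive values were favoured by it. Over the 18 genes that did not depend on 1 group to pass the filter, the median was 0.38 and 3 (16.7%) were negative. The same shControl libraries enter this comparison, the one above and the one for shMETTL14.

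IFI6 (chr1:27992572-27998724, minus strand), a membrane protein of the endoplasmic reticulum and mitochondria that restricts viruses, gave the largest rise. It had 13 and 16 counts in the shControl libraries against 80 and 72 in the shMETTL3 libraries, while control cells had 23 and 16. Both shMETTL3 libraries lay above all 4 of the control and shControl libraries, and the rise was 4.49-fold (log2 fold change 2.17 ± 0.31, adjusted p = 7.8e-06). TRIM22 had 32 and 27 counts in the shControl libraries against 78 and 81 in the shMETTL3 libraries (1.21 ± 0.25, adjusted p = 0.00071), next to 71 and 84 in control cells. IFI6 and TRIM22 kept their calls in every alternative tried. PARP14 had 74 and 101 counts against 148 and 164 (0.62 ± 0.18, adjusted p = 0.013), and the call was lost without the first shControl library (0.44, adjusted p = 0.22).

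Of the sensors, DDX58 had 96 and 138 counts in the shControl libraries against 182 and 273 in the shMETTL3 libraries (0.74 ± 0.18, adjusted p = 0.0031). The groups did not overlap, which held for 27.8% of all genes in this direction, but the shMETTL3 libraries differed from each other, and the call was lost without the second of them (0.46, adjusted p = 0.083) or without the first shControl library (0.53, adjusted p = 0.12). IFIH1 had 4 and 4 counts against 6 and 19 (1.39 ± 0.71, adjusted p = 0.16). Of the transcription factors, IRF1 had 43 and 35 counts against 101 and 62 (0.85 ± 0.28, adjusted p = 0.026). This call was lost without the first shMETTL3 library (0.38, adjusted p = 0.34), the first shControl library (1.04, adjusted p = 0.061) or the second (0.66, adjusted p = 0.26). STAT2 had 121 and 114 counts against 163 and 171, a log2 fold change of 0.29 ± 0.16 (adjusted p = 0.21), and IRF9 had 14 and 6 against 19 and 14 (0.50 ± 0.48, adjusted p = 0.49).

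GBP1, GBP2, DTX3L, OAS3 and PARP9, all lower in senescence, were not called higher with shMETTL3. GBP1 had 11 and 9 counts in the shControl libraries against 10 and 4 in the shMETTL3 libraries (log2 fold change -0.72 ± 0.54, adjusted p = 0.37), GBP2 had 5 and 17 against 16 and 10 (0.03 ± 0.51), and DTX3L had 28 and 21 against 18 and 18 (-0.66 ± 0.35, adjusted p = 0.18). OAS3 and PARP9 had values of 0.51 ± 0.59 and 0.38 ± 0.41. IFI44 and IFIT3 had larger values, 1.75 ± 0.68 and 1.17 ± 0.53, that did not pass (adjusted p = 0.063 and 0.11).

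**Figure D4:**
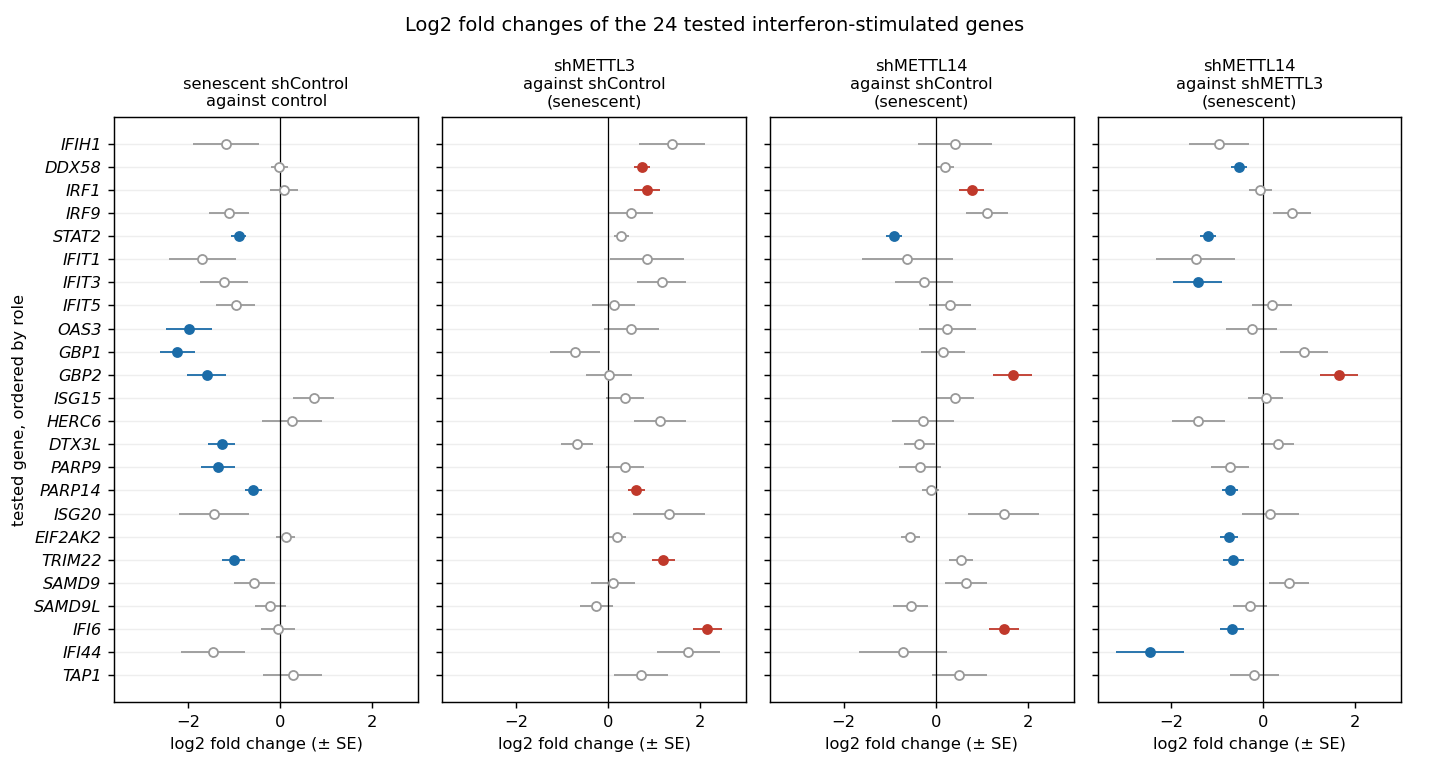
Log2 fold changes with standard errors of the 24 tested genes, ordered by role, in 4 comparisons. Filled red points passed the threshold as higher (0, 5, 3 and 1 genes from left to right), filled blue points as lower (8, 0, 1 and 8 genes), and open grey points did not pass.

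In the libraries labelled shMETTL14, compared with shControl, 3 of the 24 genes rose, GBP2, IFI6 and IRF1, and 1 fell, STAT2. Of all genes 9.15% were called higher and 12% lower, against 12.5% and 4.17% of the 24. The median of the 24 was 0.23 against 0.00 for all genes. It was 0.04 without the first shControl library, and 0.05 with at least 10 counts required in every library. Of the 24, 14 had a positive value and 10 (41.7%) a negative value, against 50% of all genes negative. At an unadjusted p below 0.05, 5 were higher and 2 lower, and DESeq2 called 2 higher and 1 lower. DESeq2 did not call IRF1 (adjusted p = 0.16). When libraries were scaled by their totals alone, the calls were 7 higher and 0 lower.

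GBP2 had 5 and 17 counts in the shControl libraries against 45 and 34 in the shMETTL14 libraries, close to the 51 and 36 of control cells. The groups did not overlap, as in 32.2% of all genes in this direction, and the log2 fold change was 1.68 ± 0.42 (adjusted p = 0.0048). The call was lost without the first shControl library (1.09, adjusted p = 0.13) or the first shMETTL14 library (1.48, adjusted p = 0.074). IFI6 had 13 and 16 counts against 44 and 47, a 2.8-fold rise (1.48 ± 0.33, adjusted p = 0.0016) that every alternative kept. IRF1 had 43 and 35 counts against 63 and 87 (0.78 ± 0.28, adjusted p = 0.046), a call lost without either control library, either shControl library or the second shMETTL14 library (0.49 to 0.98, adjusted p = 0.05 to 0.38). STAT2 had 121 and 114 counts against 65 and 75, and fell 1.87-fold (-0.91 ± 0.18, adjusted p = 6e-04). It had thus its lowest values in both shMETTL14 libraries. The STAT2 call held with any library left out, and was lost with library totals alone as the scale (adjusted p = 0.054).

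Among the others, IRF9 had 14 and 6 counts against 29 and 20 (1.12 ± 0.45, adjusted p = 0.075), a value of opposite sign to that of its partner STAT2 that did not pass. DDX58 had 96 and 138 against 152 and 149 (0.21 ± 0.18, adjusted p = 0.47), and IFIH1 had 4 and 4 against 2 and 10 (0.42 ± 0.81). EIF2AK2 had 112 and 114 against 77 and 95 (-0.55 ± 0.21, adjusted p = 0.062).

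A direct test of the difference between the knockdowns, in which the control and shControl libraries enter only through the shared filter, scaling and estimate of spread, called 8 of the 24 genes lower with shMETTL14 than with shMETTL3 and 1 higher. The shares over all genes were 18.7% lower and 16.5% higher, and the median of the 24 was -0.41 against 0.01. DESeq2 called 1 higher and 3 lower, and did not call IFI44, IFIT3, IFI6, TRIM22 or DDX58. With only these groups in the edgeR fit, 4 were lower. IFI44, a cytoplasmic interferon-induced protein, had 13 and 11 counts with shMETTL3 and 3 and 1 with shMETTL14 (log2 fold change -2.46 ± 0.73, adjusted p = 0.01). IFIT3, an adaptor that stabilises IFIT1 on RNA, had 18 and 19 against 3 and 10 (-1.43 ± 0.53, adjusted p = 0.038). Both genes rest on few counts. The IFI44 call was lost without the first (-3.37, adjusted p = 0.055) or second shMETTL14 library (-1.93, adjusted p = 0.14), and the IFIT3 call without any 1 library other than the second shMETTL14 library (-1.43 to -0.81, adjusted p = 0.051 to 0.4).

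STAT2 had 163 and 171 counts with shMETTL3 and 65 and 75 with shMETTL14, a 2.29-fold difference (-1.20 ± 0.18, adjusted p = 6.2e-06) that all alternatives kept. PARP14 had 148 and 164 against 89 and 92 (-0.73 ± 0.18, adjusted p = 0.0024), also kept in every other fit. EIF2AK2, whose product halts translation when it binds double-stranded RNA, had 111 and 192 against 77 and 95 (-0.75 ± 0.20, adjusted p = 0.0053). Its shMETTL3 libraries stood apart from each other, and the call was lost without the second (-0.35, adjusted p = 0.23) or without the first shMETTL14 library (-0.59, adjusted p = 0.1). IFI6 had 80 and 72 against 44 and 47 (-0.68 ± 0.25, adjusted p = 0.037). TRIM22 had 78 and 81 against 44 and 53 (-0.65 ± 0.23, adjusted p = 0.027). DDX58 had 182 and 273 against 152 and 149 (-0.53 ± 0.17, adjusted p = 0.017). In none of the 3 did the groups overlap, which in this direction held for 32.8% of all genes, and each call could be lost. The IFI6 call was lost without either shControl library, either shMETTL14 library or the first shMETTL3 library (-0.76 to -0.54, adjusted p = 0.051 to 0.21), the TRIM22 call without either shMETTL3 library or the first shMETTL14 library (-0.67 to -0.51, adjusted p = 0.051 to 0.24), and the DDX58 call without the second shMETTL3 library (-0.26, adjusted p = 0.31) or either shMETTL14 library (-0.55 and -0.53, adjusted p = 0.063 and 0.1). GBP2 was the member that went the other way, with 16 and 10 counts against 45 and 34 (1.65 ± 0.41, adjusted p = 0.0024), a call kept in each setting in which GBP2 was tested.

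Set directly against control cells, senescent shMETTL3 cells had 5 genes higher and 6 lower, where 20.1% of all genes were called higher and 20.1% lower, and the median of the 24 was -0.07. Over the 18 genes that did not depend on 1 group to pass the filter, 4 were higher and 5 lower, with a median of -0.25. GBP1 was lowest, with 10 and 4 counts against 59 and 65 (log2 fold change -2.95 ± 0.41, adjusted p = 1.3e-06). DTX3L (-1.93), GBP2 (-1.56), PARP9 (-0.97) and STAT2 (-0.61) were also lower, as was OAS3 (-1.46), which passed the filter only through the control libraries. IFI6 was 2.12 ± 0.29 higher on the log2 scale. HERC6, a gene of the HERC family, had 13 and 18 counts against 5 and 8 (1.40 ± 0.55, adjusted p = 0.044). However, HERC6 passed the filter only through the shMETTL3 libraries, where it is high. ISG15 had 27 and 21 against 15 and 10 (1.10 ± 0.42, adjusted p = 0.037). IRF1 (0.94) and DDX58 (0.72) were higher as well.

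Senescent shMETTL14 cells had 3 genes higher and 9 lower than control cells, with 19.7% of all genes called higher and 20.5% lower and a median of -0.55 for the 24. IFIT1, which binds the ends of foreign RNA that lack the host's cap methylation, had 0 and 5 counts against 16 and 14 (-2.30 ± 0.76, adjusted p = 0.017). IFIT1 and OAS3 passed the filter only through the control libraries, where they are high, and without genes of that kind 7 of 18 were lower. STAT2 had 65 and 75 against 289 and 284, a 3.5-fold difference (-1.81 ± 0.17, adjusted p = 1.6e-09), the smallest p-value of any of the genes in any of the 6 comparisons. IFI44 (-2.17), GBP1 (-2.08), OAS3 (-1.72), PARP9 (-1.70), DTX3L (-1.62), IFIT3 (-1.48) and PARP14 (-0.69) were lower too, and IFI6 (1.44), ISG15 (1.16) and IRF1 (0.87) were higher. ISG15 had 24 and 24 counts, above both control libraries.

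Against control cells, DESeq2 did not call OAS3, PARP9, ISG15 or HERC6 with shMETTL3, or IFIT1, IFIT3, IFI44, IRF1 or ISG15 with shMETTL14. Many of the calls also depended on single libraries. With shMETTL3, IRF1 was lost without the second control library (0.78, adjusted p = 0.074) or the first shMETTL3 library (0.48, adjusted p = 0.17), and OAS3 (-1.20, adjusted p = 0.14) and GBP2 (-1.28, adjusted p = 0.052) without the first control library. PARP9 was lost without either control library or the second shMETTL3 library (-1.02 to -0.92, adjusted p = 0.067 to 0.12). ISG15 was lost without either control library, the first shMETTL3 library or the second shMETTL14 library (0.83 to 1.43, adjusted p = 0.054 to 0.24), and HERC6 without any 1 library other than the first shMETTL3 library (1.11 to 1.75, adjusted p = 0.065 to 0.27). With shMETTL14, leaving out the first shMETTL14 library moved IFIT1 to -1.29 (adjusted p = 0.3) and IFIT3 to -0.82 (adjusted p = 0.35), while OAS3 (-1.66, adjusted p = 0.056) and PARP14 (-0.61, adjusted p = 0.05) lost their calls with little change in value. IFIT1 was also lost without either control library (-2.19 and -2.40), OAS3 without the first (-1.45), and IFIT3 (-1.23), PARP14 (-0.56) and IRF1 (0.72, adjusted p = 0.11) without the second. IRF1 was lost as well without the second shMETTL14 library (0.59, adjusted p = 0.19). IFI44 was lost without any 1 of the control or shMETTL14 libraries (-3.04 to -1.64, adjusted p = 0.073 to 0.22), and ISG15 without the second control library or either shMETTL14 library (0.89 to 1.21, adjusted p = 0.098 to 0.21). STAT2, GBP1, DTX3L and IFI6 in both groups, DDX58 with shMETTL3 and PARP9 with shMETTL14 kept their calls with any library left out.

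The rest of the interferon pathway was read from 4 lists. The shares of all genes called higher and lower, against which their counts are to be read, were 13.3% and 13.3% in senescence, 12.3% and 11.2% with shMETTL3, 9.15% and 12% with shMETTL14, 16.5% and 18.7% between the knockdowns, and 20.1% and 20.1%, then 19.7% and 20.5%, for shMETTL3 and shMETTL14 against control cells. Of 9 interferon genes other than IFNB1, 7 had fewer than 10 counts in total, and IFNE alone was tested. IFNE, an epithelial type I interferon gene, had 2 and 2 counts in the control libraries, 37 and 26 in shControl, 51 and 49 in shMETTL3 and 13 and 32 in shMETTL14, a log2 fold change of 4.27 ± 0.59 in senescence (adjusted p = 2.3e-06). It lies wholly (100%) inside MIR31HG, a long noncoding RNA gene on the same strand, which had 212 and 197 counts in the control libraries against 3278 and 2981 in the shControl libraries and changed by 4.32 ± 0.18. Reads of IFNE and MIR31HG cannot be told apart in these counts.

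Of 10 receptor and signaling genes, all tested, 3 rose and none fell in senescence: SOCS3, a feedback inhibitor of JAK kinases (1.77 ± 0.22, adjusted p = 5.1e-07), and the interferon gamma receptor genes IFNGR1 (1.71) and IFNGR2 (0.81). IFNGR2 shares 14.5% of its span with TMEM50B on the opposite strand, and reads there may count for both. The list's median was 0.30. SOCS3 counts were 44 and 43, 122 and 105, 38 and 29, and 112 and 86 in control, shControl, shMETTL3 and shMETTL14 cells, so that the shControl and shMETTL14 libraries lay above control cells, while the shMETTL3 value against control was -0.21 ± 0.27 (adjusted p = 0.57). With shMETTL3, SOCS3 (-1.97 ± 0.23, adjusted p = 4.8e-07) and the type I receptor gene IFNAR1 (-0.57) fell and JAK2 rose (0.56). With shMETTL14, IFNAR1 (-0.90) fell and none rose. Between the knockdowns 3 were higher and 2 lower with shMETTL14, led by SOCS3 (1.61), IFNGR2 (0.80) and IFNAR2 (0.75). Against control cells, 3 rose and 1 fell with shMETTL3, led by SOCS1 (-2.10), IFNGR1 (1.51) and JAK2 (0.59). SOCS1, the only fall, passed the filter only through the control libraries, where it is high. With shMETTL14, 4 rose and none fell against control cells, led by SOCS3 (1.41), IFNGR1 (1.39) and IFNGR2 (1.32).

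Of 15 nucleic acid sensing genes 10 were tested. In senescence 1 rose, TMEM173, which encodes the DNA-sensing adaptor STING (1.11 ± 0.33, adjusted p = 0.012), and 1 fell, MAVS, the adaptor of RIG-I and MDA5 (-0.61 ± 0.17, adjusted p = 0.0071), with a list median of -0.04. With shMETTL3, TMEM173 fell (-1.49 ± 0.35, adjusted p = 0.0025), as did MAVS (-0.78) and the RIG-I activating ligase TRIM25 (-0.51), and IFI16, a nuclear DNA sensor, rose (0.91 ± 0.17, adjusted p = 0.00019). DDX58 rose with shMETTL3, while the gene for its adaptor MAVS fell. With shMETTL14, TRIM25 (0.67) and IFI16 (0.48) rose and none fell. Between the knockdowns 2 were higher and 4 lower with shMETTL14, led by SAMHD1 (-1.38), TRIM25 (1.18) and MAVS (0.97). Against control cells 2 of the 10 rose and 3 fell in each knockdown group, near the shares over all genes, with CGAS, the cytoplasmic DNA sensor, lower in both (-1.72 and -1.66), though it passed the filter only through the control libraries, where it is high. MAVS (-1.39) and IFI16 (0.97) followed with shMETTL3, and SAMHD1 (-1.72) and TRIM25 (0.61) stood beside it with shMETTL14.

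Of 12 other antigen presentation genes 11 were tested, and in senescence 3 rose and 1 fell, with a list median of 0.30. HLA class I genes are close in sequence, so how reads were split among them is uncertain. TAPBP, a chaperone of peptide loading, was 1.16 ± 0.39 higher (adjusted p = 0.027), ERAP2, a peptide-trimming enzyme, 0.75 higher, and HLA-C, a class I heavy chain gene, 0.51 higher. NLRC5, the transactivator of class I genes, fell by 1.21 on the log2 scale (SE 0.23, adjusted p = 0.00023), with 108 and 109 counts in the control libraries against 28 and 44 in the shControl libraries. With shMETTL3, HLA-E (-0.94) and HLA-C (-0.80) fell and none rose. With shMETTL14, ERAP2 (-1.20) and B2M (-0.70) fell and none rose. Between the knockdowns 2 were higher and 2 lower with shMETTL14, led by ERAP2 (-1.49), HLA-E (1.04) and HLA-C (0.41). Against control cells ERAP2 rose (1.05) and NLRC5 fell (-0.82) with shMETTL3, and 2 rose and 3 fell with shMETTL14, led by NLRC5 (-1.29), TAPBP (1.18) and HLA-E (0.79). The lower genes included ERAP1 (-0.50), which shares 29.3% of its span with CAST on the opposite strand, so that its value is uncertain, and which was named after its values were seen.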

How the data were processed

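fastGRO-seq libraries from IMR90 ER:RAS fibroblasts in 4 groups of 2, which the study describes as independent experiments, were analysed. The authors deposited raw counts per RefSeq gene body, made with HOMER from reads aligned to hg19 with STAR (version not given in the sources used here). The submitters' processing notes also name deepTools 3.3. The Drosophila spike-in of the methods was not used here, so a change common to all genes would not be seen. Gene-level counts were filtered with the filterByExpr function of edgeR 4.0.16 (R 4.3.3), with a minimum count of 10, scaled by TMM over all genes that passed (ribosomal RNA rows among them), and compared in 1 quasi-likelihood fit of edgeR over all 8 libraries, with Benjamini-Hochberg adjustment over all 12844 genes tested and calls at an adjusted p below 0.05. Errors are SE of the log2 fold change. DESeq2 1.42.0, other scalings and filters, and fits without 1 library were alternatives. The script was tested on simulated counts. The 43 genes and all lists were chosen with earlier results of these data known. A gene of the receptor list is not reported here. Genes named from the lists are the 3 called genes with the largest change in a comparison, with a few others named after their values were seen. Promoters came from RefSeq (GRCh38.p14), and gene positions, unless so marked, are hg19. With 1513930 to 2048475 counts outside ribosomal RNA per library, genes of few counts were measured with low precision.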

Additional observations from a re-analysis of the deposited data

Results flagged for a closer look

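The effects of the knockdowns, tested against each other in 1 fit with edgeR, differed for 9 of the 24 tested interferon-stimulated genes. The log2 effect of shMETTL14 minus that of shMETTL3 was -2.46 for IFI44, -1.43 for IFIT3, -1.20 for STAT2, -0.75 for EIF2AK2, -0.73 for PARP14, -0.68 for IFI6, -0.65 for TRIM22 and -0.53 for DDX58. GBP2 had the opposite sign, at 1.65. STAT2, PARP14 and GBP2 kept this call in every other fit in which they were tested. DESeq2 called 1 gene higher and 3 lower, a fit of only these groups 1 and 4, and leaving out the first shMETTL14 library gave 2 lower. Over all genes tested, the main edgeR fit called 18.7% lower and 16.5% higher in the same comparison.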

How the results depend on the processing

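Of 49 calls of single genes, 19 were kept in every other fit and 0 reversed. The counts of genes called, in the order higher and lower, were 0 and 8 in senescence, 5 and 0 with shMETTL3, 3 and 1 with shMETTL14, 1 and 8 for shMETTL14 against shMETTL3, and 5 and 6 and then 3 and 9 for shMETTL3 and shMETTL14 against control cells. With library totals alone as the scale they were 0 and 17, 14 and 0, 7 and 0, 1 and 9, 5 and 5, and 2 and 10. On that scale the median of all genes was -0.53, 0.58, 0.35, -0.25, 0.067 and -0.14, against -0.034, -0.034, 0.00, 0.012, -0.051 and 0.0024, and the medians of the genes were -1.48, 1.18, 0.57, -0.68, 0.0459 and -0.69, the fifth reversed from -0.07. Relative to all genes the medians were close on both scales, for example -0.951 and -0.95 in senescence. With at least 10 counts required in every library, which by its construction removes genes that fell to few counts, the calls were 0 and 4, 5 and 0, 2 and 1, 0 and 6, 4 and 2, and 3 and 4. The medians were then -0.16 in senescence, 0.05 with shMETTL14, -0.56 between the knockdowns and, reversed, 0.2001 for shMETTL3 against control. DESeq2 called 0 and 6, 3 and 0, 2 and 1, 1 and 3, 3 and 4, and 1 and 6. With only the groups compared in the fit the counts were 0 and 12, 5 and 0, 4 and 2, 1 and 4, 3 and 6, and 3 and 10, with a median of -0.66 for shMETTL14 against control. At an adjusted p below 0.01 they were 0 and 7, 3 and 0, 2 and 1, 1 and 3, 3 and 4, and 1 and 6, and with a change of 1 or more on the log2 scale, either way, also required they were 0 and 6, 2 and 0, 2 and 0, 1 and 3, 3 and 4, and 2 and 8. Upper-quartile scaling gave 3 and 6 for shMETTL3 against control, and no filter gave 2 lower with shMETTL14. No share of all genes called is given for these other settings, so the counts show only how the calls moved. The cause of these differences was not tested.

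Leaving out 1 library in turn, with the lone library assumed to vary like the other groups, gave 5 to 11 lower in senescence, 2 to 6 higher with shMETTL3, 2 to 5 higher and 1 to 2 lower with shMETTL14, 1 to 2 higher and 2 to 7 lower between the knockdowns, 2 to 4 higher and 3 to 7 lower for shMETTL3 against control, and 1 to 3 higher and 4 to 11 lower for shMETTL14 against control. The medians ranged from -0.99 to -0.90, 0.44 to 0.83, 0.04 to 0.35, -0.53 to -0.34, -0.25 to -0.0033 and -0.62 to -0.25. Nothing in the labels says that replicate numbers pair libraries. Deviations of same-numbered libraries correlated at -0.0389 to 0.101, which cannot exclude a pairing, since counting error weakens such correlations. With the replicate number as a block, shMETTL14 had 2 genes lower instead of 1, and 1 single-gene call was lost.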
